A study of Homo sapiens with 8 samples.

Results

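The genes described here are 42 genes of mitosis and the spindle, chosen from a fixed list of names: cyclins and kinases of mitotic entry, targets and partners of the anaphase promoting complex, checkpoint and kinetochore proteins, spindle motors, proteins of cytokinesis and proteins that shape chromosomes. Of the 42 genes, 41 have a named probe on the array, with 59 probes in all. ECT2, an activator of the small GTPase RhoA in cytokinesis, has no probe named here. A gene was tested when a probe had a detection p under 0.01 on each array of 1 condition or more, which left 39 of these genes and 9269 genes in all. MAD2L1, a checkpoint protein, was detected on 1 of 8 arrays and NCAPH, a condensin subunit, on 0 of 8, so neither was tested. Where a gene has several tested probes, the probe with the highest mean stands for it.

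Human embryonic stem cells were grown on matrigel in N2B27 medium for 5 days in 4 conditions: without bFGF (−bFGF), with bFGF at 24 ng/ml (+bFGF), with IL-11 at 10 ng/ml (+IL-11), and with both factors (+IL-11+bFGF). bFGF is the growth factor FGF2, which keeps these cells undifferentiated in culture, while IL-11 signals, like IL-6, through the receptor chain gp130. The labels name the cell line H1 and the study names it H9; both are established lines, and the 8 arrays are taken to be of a single line. Each condition has 2 Illumina human-8 arrays, and neither the labels nor the study ties these arrays to separate cultures, so a p-value here rests on array-to-array spread alone, some or all of which may be technical.

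A dividing cell builds up cyclins A and B, which activate the kinase CDK1. CDC25 phosphatases remove the phosphates that hold CDK1 inactive, and the kinase WEE1 adds them. Kinesin motors and microtubule-binding proteins then build the spindle, the checkpoint holds anaphase back until every chromosome is attached, and the anaphase promoting complex with CDC20 destroys securin and cyclin B. Most of these genes are transcribed in late S phase, G2 and mitosis, so in a culture their RNA follows how many cells are in those phases. In RNA from a whole culture, fewer cells in these phases and less RNA per cell cannot be told apart.

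Many mitotic genes carry a short promoter element, the cell cycle genes homology region, which is bound by the DREAM and MuvB complexes, together with a box bound by NF-Y. The promoter windows of RefSeq on GRCh38.p14 run from 250 bases before to 50 after a transcription start, and 36 of the 42 genes have at least 1 window, 48 windows in all. The letters TTTGAA or TTCGAA, on either strand, occur in a window of 28 of these 36 genes (77.8%). They occur for 15.6% of the 7702 genes tested on the arrays that have a window and for 19.5% of all 27305 genes with a window. CCAAT, on either strand, occurs for 27 of the 36 genes (75.0%) against 44.3% of the tested genes. Both occur for 21 of the 36 (58.3%) against 6.74%. A match is a description of the letters and not a measured binding site, and these genes were listed for their function, with which the element is known to go.

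The 110 bases before the start are shown for 8 of these genes: the 5 that passed the test between +bFGF and −bFGF, and 3 (CCNB2, PLK1 and CDC20) that did not, picked after their windows were seen to set the promoters side by side. For a gene with several windows, the window with the homology element and the most matches was taken. Capitals mark the letters searched, on either strand: TTTGAA with its variants (TTCGAA for CDC25B and CTTGAA for CCNA2), and the NF-Y box, which reads ATTGG where it lies on the other strand. The sequences are given 5′ to 3′ on the gene's strand, up to the base before the start.
CDC25C (chr5:138331805-138331914, - strand): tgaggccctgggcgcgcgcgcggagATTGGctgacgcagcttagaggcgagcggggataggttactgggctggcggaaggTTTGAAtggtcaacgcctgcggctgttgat
INCENP (chr11:62123901-62124010, + strand): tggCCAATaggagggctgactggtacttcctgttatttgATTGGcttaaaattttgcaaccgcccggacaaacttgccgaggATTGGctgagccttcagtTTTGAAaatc
HMMR (chr5:163460522-163460631, + strand): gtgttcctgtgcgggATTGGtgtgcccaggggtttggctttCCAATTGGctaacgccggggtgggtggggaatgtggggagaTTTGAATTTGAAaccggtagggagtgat
CDC25B (chr20:3796200-3796309, + strand): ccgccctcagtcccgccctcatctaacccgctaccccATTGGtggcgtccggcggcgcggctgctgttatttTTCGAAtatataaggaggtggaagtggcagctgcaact
CCNB2 (chr15:59105036-59105145, + strand): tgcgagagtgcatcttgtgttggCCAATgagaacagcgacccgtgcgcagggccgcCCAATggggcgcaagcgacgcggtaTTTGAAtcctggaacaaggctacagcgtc
PLK1 (chr16:23678779-23678888, + strand): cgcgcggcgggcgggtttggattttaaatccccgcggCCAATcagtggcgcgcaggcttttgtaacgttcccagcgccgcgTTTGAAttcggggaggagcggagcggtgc
CDC20 (chr1:43358871-43358980, + strand): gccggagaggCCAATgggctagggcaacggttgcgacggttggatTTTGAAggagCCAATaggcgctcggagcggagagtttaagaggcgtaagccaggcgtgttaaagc
CCNA2 (chr4:121823884-121823993, - strand): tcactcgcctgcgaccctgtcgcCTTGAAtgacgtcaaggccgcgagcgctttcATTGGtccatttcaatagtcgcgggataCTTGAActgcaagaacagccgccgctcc
Counted from the start as negative positions, CDC25C has TTTGAA at -30, HMMR at -28 and again at -22, CCNB2 and PLK1 both at -29, INCENP at -10 and CDC20 at -65. CDC25B has TTCGAA at -38. CCNA2 has neither of these and has CTTGAA at -28 and -87. CTTGAA alone is found for 10.6% of tested genes. Genes with and without a clear response carried the element: it was found for 8 of the 12 genes with a window whose 4 arrays with bFGF all lay above the 4 without, and for 17 of the 20 whose arrays overlapped.

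**Figure D1:**
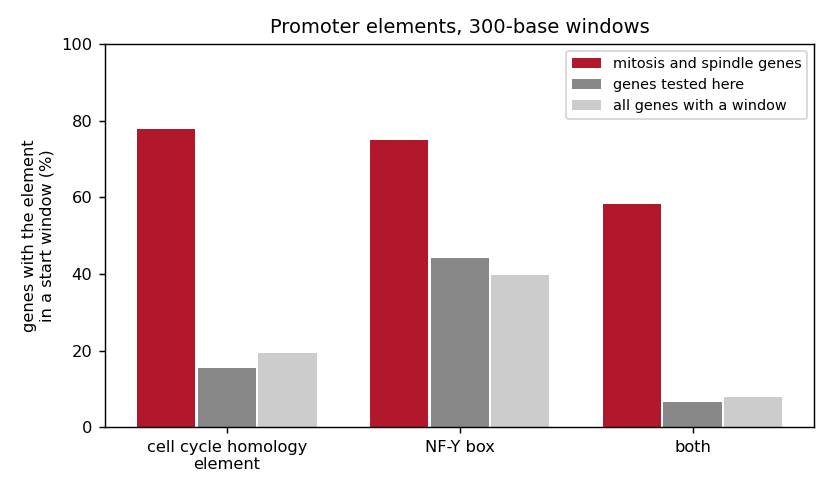
Share of genes (%) with each promoter element in a 300-base window around a transcription start. Red bars are the 36 mitosis and spindle genes with a window, dark grey bars the 7702 tested genes and light grey bars all 27305 genes with a window. The homology element stands at 77.8%, 15.6% and 19.5%.

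The first comparison asks what bFGF did to these genes in the absence of IL-11. Between +bFGF and −bFGF, 4 genes were higher with bFGF (CCNA2, CDC25C, INCENP and HMMR) and 1 was lower (CDC25B), by 1.32-fold to 1.46-fold, at an adjusted p under 0.05 in limma with Benjamini-Hochberg adjustment over 9269 genes. These 5 are 12.8% of the 39 genes, where 15.3% of all genes tested were called. By direction, 10.3% of the 39 were higher against 7.33% of all genes, and 2.56% were lower against 7.96%. On the probe that stands for each gene, no gene of the 39 changed by over 1.5-fold, while 11.9% of all genes did. Another probe of CDC25C and another of NUF2 did, at log2 differences of 0.66 and 0.60 (limma adjusted p over probes 0.0202 and 0.146). The log2 fold changes ran from -0.53 (CDC25B) to 0.55 (HMMR), with a median of 0.11 for the 39 and -0.02 for all genes, and 27 of the 39 were above 0. The 95% interval lay within a 2-fold change for all 39 genes and within a 1.5-fold change for 29. The count of called genes changed when an array was left out, which left 1 array in its condition. Why the count changed was not tested. Leaving out −bFGF replicate 1 gave 3 and leaving out −bFGF replicate 2 gave 0, and 1 was left when either +bFGF array was dropped.

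The same question was asked in the presence of IL-11, on 4 other arrays. Between +IL-11+bFGF and +IL-11, CDC25C and INCENP were higher with bFGF, 2 of 39 genes (5.13%) where 11.3% of all genes tested were called. All genes divided into 5.63% higher and 5.67% lower. No gene of the 39 changed by over 1.5-fold, against 10.0% of all genes. The median log2 fold change was 0.13 for the 39, with 28 above 0, and -0.0017 for all genes. The count dropped to 0 when +IL-11 replicate 2 or either of the +IL-11+bFGF arrays was left out. The sign was the same in both bFGF responses for 30 of the 39 genes (76.9%) and for 77.1% of all genes.

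**Figure D2:**
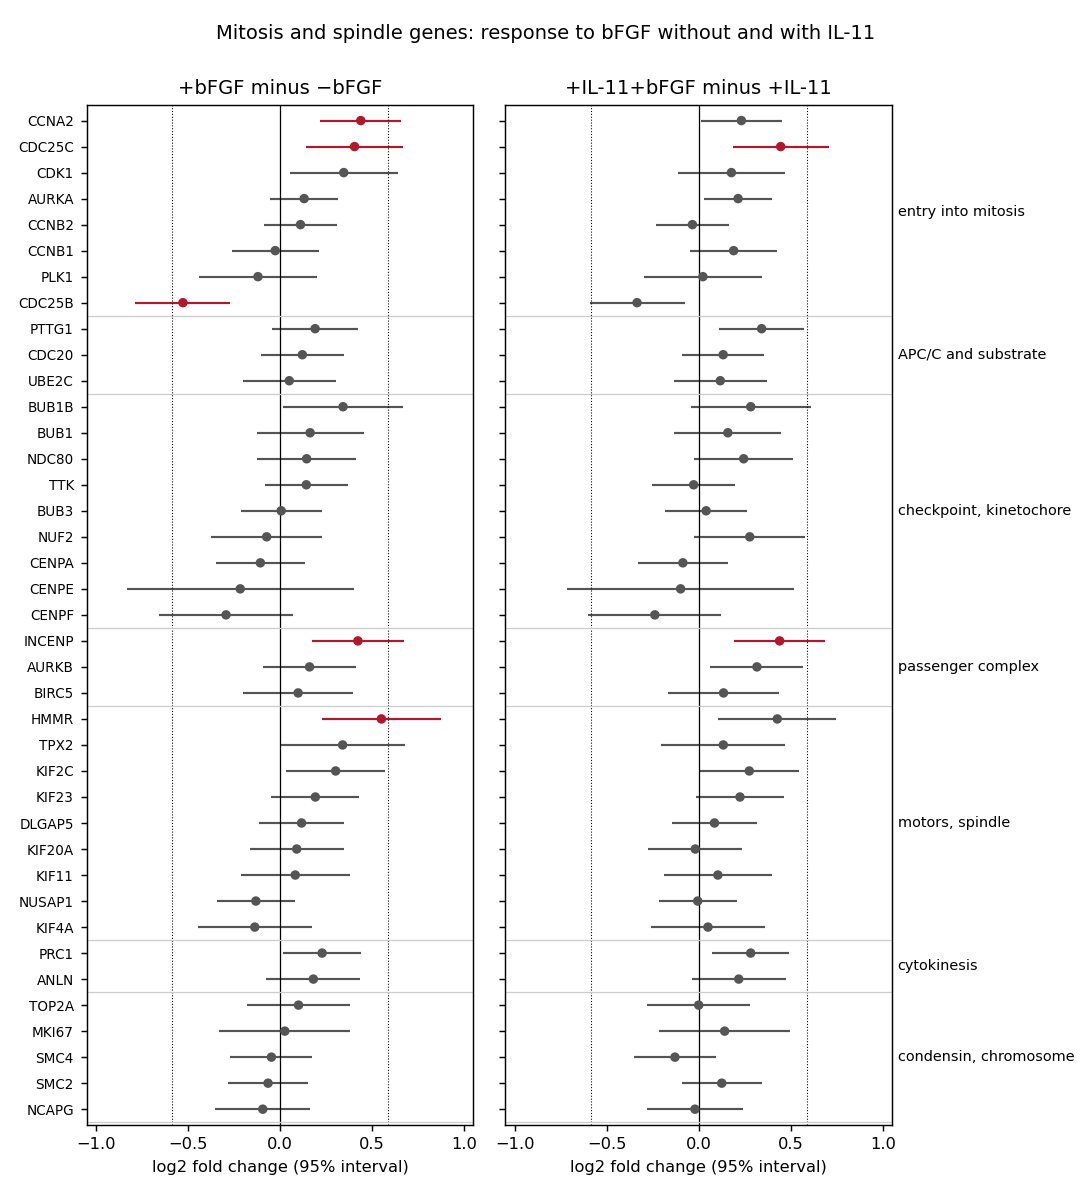
Log2 fold change (point) and 95% interval (line) of the 39 tested genes for +bFGF minus −bFGF (left) and +IL-11+bFGF minus +IL-11 (right), in groups by role. Red marks genes at an adjusted p under 0.05, 5 on the left and 2 on the right, and dotted lines mark a 1.5-fold change, which no point passes.

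Taken over all 8 arrays, as the mean of both bFGF responses, 8 of the 39 genes were higher with bFGF (CCNA2, CDC25C, PTTG1, BUB1B, INCENP, KIF2C, HMMR and PRC1) and CDC25B was lower. These 9 are 23.1% of the 39, against 27.8% of all genes tested. By direction, 20.5% were higher against 13.4% of all genes and 2.56% lower against 14.5%. In 13 of the 39 genes (33.3%) every array with bFGF lay above every array without it, which held for 14.7% of all genes. In 1 gene, CDC25B (2.56%), every array with bFGF lay below, which held for 16.1% of all genes. The 13 are CCNA2, CDK1, CDC25C, AURKA, PTTG1, BUB1B, NDC80, AURKB, INCENP, KIF23, KIF2C, HMMR and PRC1. The calls of CCNA2, CDC25B, CDC25C, INCENP and HMMR held under each of 19 alternatives. BUB1B and KIF2C lost theirs when any array but +IL-11 replicate 1 was left out (adjusted p 0.0566 to 0.161 and 0.0528 to 0.0971). PTTG1 lost its call without −bFGF replicate 1 or 2, +bFGF replicate 2, +IL-11 replicate 2 or +IL-11+bFGF replicate 1 (0.0545 to 0.0835). Under settings that kept all arrays, BUB1B lost its call in 5 more alternatives (0.0525 to 0.0836) and KIF2C and PTTG1 in 2 more each, the fit with no intensity trend and the methods' t-test. PRC1 lost its call without −bFGF replicate 1, +bFGF replicate 1, +IL-11 replicate 1 or +IL-11+bFGF replicate 2 (0.0515 to 0.0642).

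**Figure D3:**
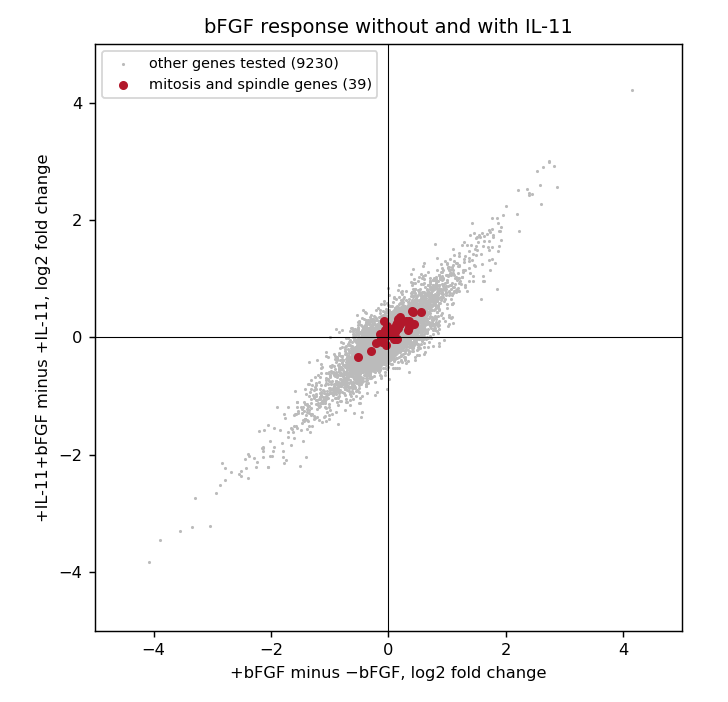
Log2 fold change for +bFGF minus −bFGF (horizontal) against +IL-11+bFGF minus +IL-11 (vertical), which share no arrays. Each grey dot is a tested gene and each red point 1 of the 39 mitosis and spindle genes, which stay between -0.53 and 0.55 on the horizontal axis, near the centre of the cloud.

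Among the genes of mitotic entry, the phosphatases CDC25B and CDC25C moved in opposite directions. CDC25C, which activates CDK1 at the onset of mitosis, had a log2 signal of 9.27 and 9.22 on the −bFGF arrays, 9.74 and 9.56 with bFGF, 9.30 and 9.12 with IL-11, and 9.73 and 9.58 with both. The 4 arrays with bFGF were all above the 4 without. It was higher by 0.40 (SE 0.12, n = 2 arrays a condition, limma adjusted p 0.0447) without IL-11 and by 0.44 (adjusted p 0.0376) with IL-11, 1.32-fold and 1.36-fold. The call without IL-11 was lost in 13 of 20 alternatives, among them looser filters on detection (adjusted p 0.0517 and 0.0581) and the loss of any single array, even outside the comparison (0.0551 to 0.226), with an adjusted p of 0.0202 to 0.288 over all 20. The call with IL-11 was lost in 7 of 20 (0.0221 to 0.318). The other 2 probes of CDC25C were higher without IL-11, by 0.66 and 0.53 (adjusted p over probes 0.0202 and 0.0414). With IL-11 these probes differed by 0.51 and 0.37 (0.0674 and 0.158). The value of 0.0202 among the 20 alternatives is that of the former probe, from probes tested one by one.

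CDC25B, a phosphatase that acts on cyclin-dependent kinases ahead of mitosis and at centrosomes, read 10.38 and 10.57 on the −bFGF arrays, 9.97 and 9.93 with bFGF, 10.45 and 10.29 with IL-11, and 10.15 and 9.92 with both. Here every array with bFGF was below every array without. It fell by 0.53 on the log2 scale without IL-11 (SE 0.12, 1.44-fold, limma adjusted p 0.0155) and the difference with IL-11 was -0.34 (adjusted p 0.0952). The gene has 1 probe on the array, and its call without IL-11 was lost in 4 of 20 alternatives.

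CCNA2, cyclin A, which drives S phase and the start of mitosis, read 11.79 and 11.61 without bFGF, 12.15 and 12.13 with it, 11.85 and 11.66 with IL-11, and 12.05 and 11.93 with both. The arrays with bFGF were the higher ones in both pairs of conditions. It was higher with bFGF by 0.44 without IL-11 (SE 0.098, 1.36-fold, limma adjusted p 0.0166), and the difference with IL-11 was 0.23 (adjusted p 0.171). The call without IL-11 was lost in 4 of 20 alternatives. The other entry genes were not called in either response: CDK1 differed by 0.35 and 0.18, the kinase AURKA by 0.13 and 0.21, cyclin CCNB1 by -0.03 and 0.19, CCNB2 by 0.11 and -0.03, and the kinase PLK1 by -0.12 and 0.02.

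In the chromosomal passenger complex, which corrects faulty attachments of chromosomes to the spindle, all 3 listed genes had positive differences in both responses. INCENP, its scaffold, read 8.91 and 8.86 without bFGF, 9.37 and 9.25 with it, 8.82 and 8.73 with IL-11, and 9.16 and 9.28 with both. The arrays of the conditions with bFGF did not overlap those of the conditions without. It was higher by 0.42 (SE 0.11, limma adjusted p 0.0315) without IL-11 and by 0.44 (adjusted p 0.0324) with IL-11. Each of these calls was lost in 6 of 20 alternatives, among them the methods' t-test (adjusted p 0.248 and 0.267). AURKB, the kinase of the complex, differed by 0.16 and 0.32 and the subunit BIRC5, survivin, by 0.10 and 0.13, with neither called.

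Of the 9 genes of motors and the spindle, 7 had positive differences in each response, and the only call was that of HMMR without IL-11. HMMR, which binds hyaluronan at the cell surface and microtubules in the spindle, read 10.65 and 10.64 without bFGF, 11.33 and 11.06 with it, 10.94 and 10.62 with IL-11, and 11.37 and 11.05 with both. The lowest array with bFGF, at 11.05, was above the highest without it, at 10.94. It was higher by 0.55 without IL-11 (SE 0.14, 1.46-fold, limma adjusted p 0.0312), and the difference with IL-11 was 0.43 (adjusted p 0.0890). Its second probe differed by 0.37 without IL-11 (adjusted p over probes 0.0518) and was higher by 0.47 with it (0.0259). The call of HMMR without IL-11 was lost in 5 of 20 alternatives. KIF2C, a kinesin that takes microtubules apart, differed by 0.30 and 0.27, and TPX2, an activator of AURKA, by 0.34 and 0.13. The kinesin KIF4A differed by -0.14 and 0.05 and NUSAP1, which binds microtubules, by -0.13 and -0.0057.

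**Figure D4:**
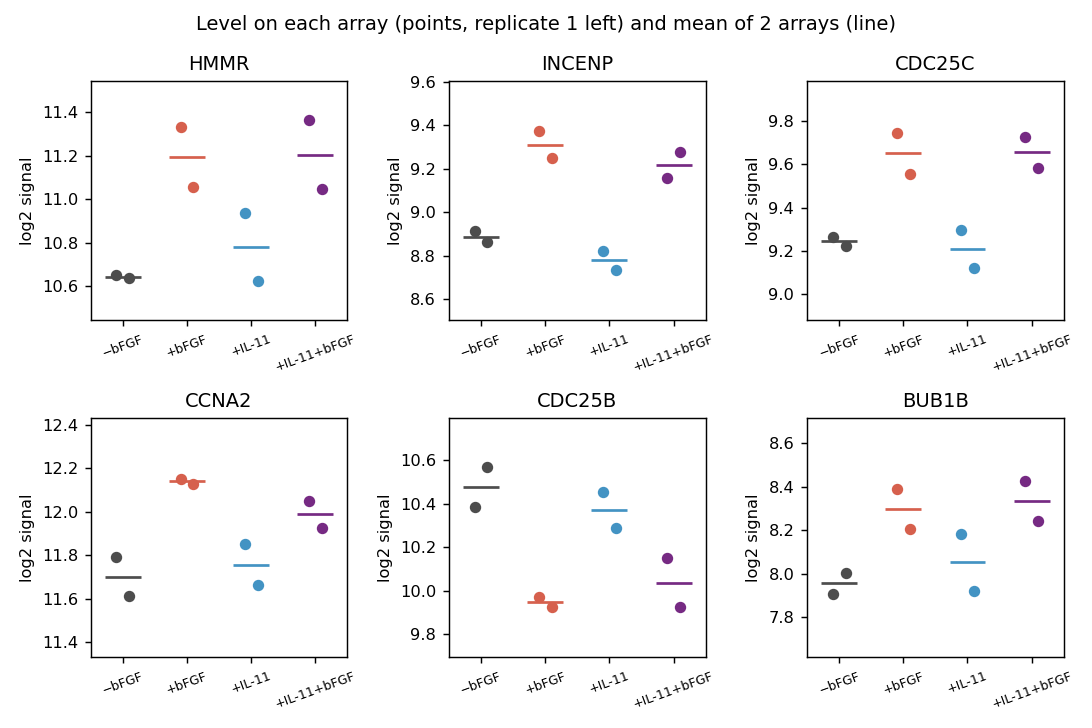
Log2 signal on each of the 8 arrays (points, replicate 1 on the left) and the mean of each condition (line) for HMMR, INCENP, CDC25C, CCNA2, CDC25B and BUB1B, each panel spanning the same range of log2 units. In 5 panels the 4 arrays with bFGF lie above the 4 without, and for CDC25B they lie below.

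The checkpoint and kinetochore genes were nearly evenly divided, with 5 of 9 above 0 in each response and none called on the probe that stands for the gene. A second, dimmer probe of BUB3, a partner of BUB1 and BUB1B, was higher with bFGF by 0.53 in the presence of IL-11 (adjusted p over probes 0.0387), where the brighter probe differed by 0.04. BUB1B, a checkpoint protein that restrains the anaphase promoting complex, read 7.91 and 8.00 without bFGF, 8.39 and 8.21 with it, 8.18 and 7.92 with IL-11, and 8.43 and 8.24 with both. The lowest array with bFGF and the highest without it were 8.21 and 8.18. The mean of its bFGF responses was 0.31 (SE 0.103, limma adjusted p 0.0478). Centromere genes had values on the other side of 0: CENPF differed by -0.29 and -0.24, the motor CENPE by -0.22 and -0.10, and CENPA, the histone H3 variant of centromeres, by -0.11 and -0.09, with none called.

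Of the anaphase promoting complex group, PTTG1, securin, differed by 0.19 and 0.34 and CDC20 by 0.12 and 0.13, with neither called within a single response. In cytokinesis, PRC1, which bundles the microtubules of the midzone, differed by 0.23 and 0.28, and ANLN, anillin, by 0.18 and 0.22. The condensin and chromosome group had 2 of 5 genes above 0 in each response, with values from -0.13 (SMC4) to 0.14 (MKI67). MKI67, the gene of the proliferation marker Ki-67, has a probe that read 137 to 154 in intensity, against a median over all probes of 113 to 121 on the arrays, so its response was measured on a dim signal. Of the 13 genes with several tested probes, the probes agreed in sign for 7 without IL-11, for 12 with it and for 9 in the mean of the bFGF responses. Without IL-11, CENPA, NUF2, NUSAP1, SMC2, SMC4 and UBE2C had probes of both signs. For UBE2C, the ubiquitin-conjugating enzyme of the complex, the brighter probe had a mean difference of 0.08 and the dimmer probe -0.39 (adjusted p over probes 0.0407).

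Arrays of a condition differed across these genes by amounts of the size of the median response to bFGF. Of the 39 genes, 27 were lower on replicate 2 than on replicate 1 in −bFGF, 37 in +bFGF, 35 in +IL-11 and 26 in +IL-11+bFGF, with median differences of -0.09, -0.12, -0.19 and -0.05. Over all genes, 47.4% to 52.3% were lower on replicate 2. The mean of the 39 genes, each set to 0 at its own mean over 8 arrays, lay between -0.02 and 0.12 on the 4 arrays with bFGF and between -0.16 and 0.02 on the 4 without, and these ranges overlap. For +bFGF replicate 2 against −bFGF replicate 1 the mean difference was -0.02, with 21 of 39 genes higher, while for +bFGF replicate 1 against −bFGF replicate 2 it was 0.21, with 35 of 39 higher. The median log2 fold change of the 39 genes stayed above 0 under 3 other scalings (0.11 to 0.19 in both responses), but single arrays set its size. The value of 0.11 in the absence of IL-11 became 0.05 when +bFGF replicate 1 was dropped, 0.17 when +bFGF replicate 2 was dropped and 0.07 when −bFGF replicate 2 was dropped. The value of 0.13 in its presence became 0.05 when +IL-11 replicate 2 was dropped and 0.21 when its replicate 1 was dropped.

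**Figure D5:**
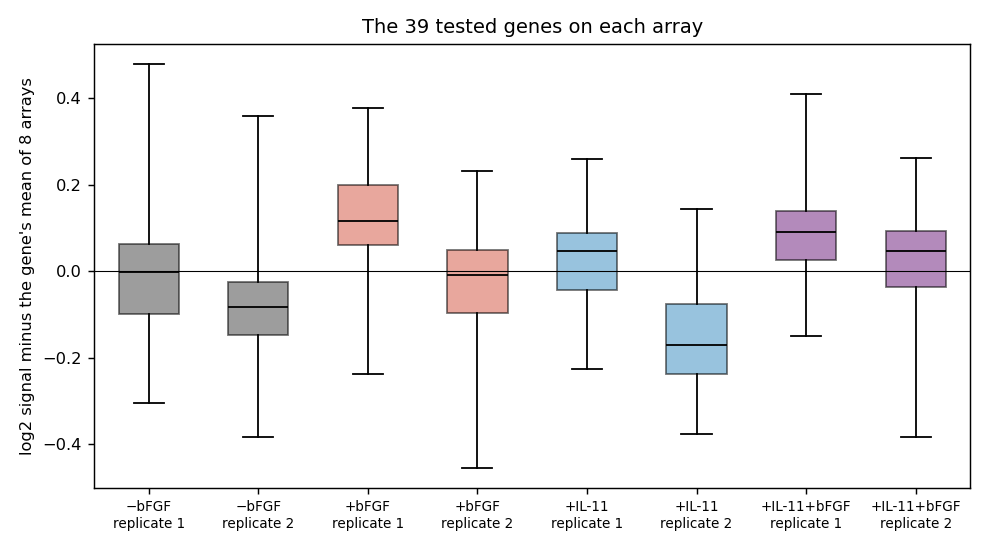
Log2 signal of the 39 genes on each array, each gene set to 0 at its mean over the 8 arrays. The line is the median, the box the interquartile range and the whiskers the lowest and highest gene. Replicate 2 lies below replicate 1 in all 4 conditions, and +IL-11 replicate 2 is lowest with a mean of -0.16.

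The question for IL-11 is whether it moved these genes without bFGF or on top of it. Between +IL-11 and −bFGF, 0 of 39 genes were called (0.00%, as of all genes tested), and 0 of the 39 and 492 of all genes had an unadjusted limma p under 0.05. The log2 fold changes ran from -0.19 (PLK1) to 0.13 (HMMR), with a median of -0.04 and 16 genes above 0. Between +IL-11+bFGF and +bFGF, 0 of 39 were again called (0.00% of all genes), with 0 of the 39 and 161 of all genes at an unadjusted p under 0.05, and a range from -0.15 (CCNA2) to 0.26 (NUF2). The methods' t-test also called 0 in both, with 0 and 2 genes at an unadjusted p under 0.05. The 95% interval lay within a 1.5-fold change for 38 of 39 genes in each comparison, and CENPE was the exception in both. The sign was the same in both IL-11 responses for 17 of the 39 genes (43.6%) against 56.6% of all genes.

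The interaction of bFGF with IL-11, which asks whether the response to bFGF differed with IL-11 present, was called for 0 of 39 genes (0.00% of all genes), with 0 of the 39 and 176 of all genes at an unadjusted limma p under 0.05. The lowest adjusted p was 0.998, and the 95% interval of the difference lay within a 1.5-fold change for 33 genes. Set against each other, +IL-11 and +bFGF differed in 4 of 39 genes (10.3%, against 13.2% of all genes): CDC25B was higher with IL-11 by 0.42, and CCNA2, CDC25C and INCENP fell by 0.38, 0.44 and 0.53 on the log2 scale. The +bFGF arrays are also those of the first comparison. Leaving out either +bFGF array gave a count of 1, and leaving out +IL-11 replicate 2 gave 0.

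Across the 8 arrays the genes varied together in part. The median Pearson r over 741 pairs was 0.42, and 26 of the 39 genes had r above 0.5 with the mean profile of the other genes. DLGAP5, a spindle assembly protein, was closest to the rest (r = 0.93), followed by CDC20 (0.91) and UBE2C (0.90). CDC25B (-0.46), CENPA (-0.12) and CENPF (-0.06) were below 0. The genes outside the list with the profiles most like the mean of the 39 were NMI (r = 0.96), UGT3A2 (0.95), DLGAP2 (0.94), LEPR (0.94) and ADPRM (0.94). These values describe 8 arrays that share conditions and replicate numbers.

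Other genes of mitosis were read from 5 lists. Of 112 listed genes, 93 were tested, and 4 were higher and 4 lower between +bFGF and −bFGF, and 1 higher and 2 lower between +IL-11+bFGF and +IL-11, where 15.3% and 11.3% of all genes were called. In the mean of both responses 13 were higher and 6 lower, with a median of 0.05, where 27.8% of all genes were called. WEE1, the kinase that opposes CDC25, was higher by 0.48 (adjusted p 0.0213) without IL-11 and differed by 0.31 (adjusted p 0.113) with it. SKA3, of the outer kinetochore, was higher by 0.58 (adjusted p 0.0293) without IL-11 and differed by 0.49 (adjusted p 0.0609) with it. HJURP, the chaperone of CENPA, was higher by 0.35 (adjusted p 0.0377) with IL-11 and differed by 0.23 (adjusted p 0.124) without it. FZR1, the activator of the anaphase promoting complex after mitosis, fell in both responses, by 0.61 and 0.64 on the log2 scale (adjusted p 0.0394 and 0.0397). STMN1, stathmin, which takes microtubules apart, fell by 0.44 and 0.58 (adjusted p 0.0224 and 0.00748). All these values are from limma.

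Genes of the earlier phases of the cycle were read from 2 lists. Of all genes tested, 15.3% were called without IL-11, 11.3% with it and 27.8% in the mean of both responses. Of 36 tested DNA replication genes, RRM2, a subunit of ribonucleotide reductase, was higher by 0.58 (limma adjusted p 0.0345) and POLE, a subunit of DNA polymerase epsilon, fell by 0.61 on the log2 scale (adjusted p 0.00996) without IL-11, and none was called with IL-11. In the mean of both responses 4 were higher and 1 lower. Of 14 tested G1 cyclins and kinases, CCND2, cyclin D2, was higher by 0.34 (adjusted p 0.0457) without IL-11 and none was called with it, and in the mean of both responses 1 was higher and 1 lower.

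Markers of cell state also moved with bFGF. Their median log2 fold change between +bFGF and −bFGF was 0.61 for undifferentiated stem cells, -1.41 for neural and neural crest cells and -0.37 for fibroblast-like support cells, beside 0.11 for the 39 mitotic genes. In that comparison 7.33% of all genes tested were called higher and 7.96% lower. Of the 7 tested stem cell markers 4 were higher and 1 lower, and 8 of 9 neural and neural crest markers were lower. Of 9 support cell markers 1 was higher (THY1, by 1.76, limma adjusted p 6.39e-05) and 1 lower (COL3A1). THY1 was higher, as was the stem cell median, against the median of its own list, and its signal counts in that list's sums. Of 8 listed markers of undifferentiated stem cells 7 were tested, all detected on both arrays of every condition, and their summed signal was 29412 to 30843 in −bFGF, 37967 to 38864 in +bFGF, 30244 to 31006 in +IL-11 and 35455 to 40399 in +IL-11+bFGF. Of 13 neural and neural crest markers 9 were tested, with sums of 11153 to 11936, 5635 to 5964, 10590 to 11947 and 5775 to 6556. In each condition with bFGF, PAX6 and POU4F1 each lacked detection on at least 1 array. Of 12 markers of fibroblast-like support cells 9 were tested, with sums of 64872 to 65823, 46885 to 59895, 64721 to 85927 and 50468 to 57281. The sum of the 39 mitotic genes was 106250 to 116298 on the 4 arrays with bFGF and 94785 to 109683 on the 4 without. The part of these cell states in the responses of the mitotic genes was not tested.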

How the data were processed

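Gene expression was measured on 8 Illumina human-8 arrays, 2 for each of 4 conditions. Groups and replicate numbers were taken from the sample titles, doses from the labels and the 5 days from the study's account of its results. The authors deposited scanner intensity for 24526 probes, linear and before normalization. Beside it the authors deposited a detection p-value against negative control beads. A second deposited table holds the authors' normalized intensity after background subtraction, for which the study names the rank invariant algorithm of BeadStudio and the submitters' processing notes name GenomeStudio, whose version the sources used here do not give. It served as an alternative. Slide and scan of each array are not given in the sources used here.

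Intensities as read were corrected with neqc of limma 3.58.1 in R 4.3.3 (normexp with negative controls inferred from the detection p-values, offset 16), then quantile normalized and log2 transformed. Quantile normalization assumes that all arrays share the same distribution of values, and the offset narrows the log2 differences of dim probes. Probes were kept at a detection p under 0.01 on each array of 1 condition or more (11668), and the probe with the highest mean stood for each of 9269 genes. Of the 24526 probes, 21834 carry 1 gene symbol in the platform annotation and 2692 are unnamed here. A single fit had 4 condition means, 4 residual degrees of freedom and an intensity trend, and Benjamini-Hochberg adjustment at 0.05 was made within each of 7 comparisons. The 8 arrays limit the precision: for the 39 genes, log2 fold changes had a median standard error of 0.114, and intervals are at 95%. An exact permutation test of 2 arrays against 2 cannot go below p = 0.333, so none is given for single genes. The fit was tested on simulated data.

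The genes, the lists and the tests were chosen with earlier results of these data known. Array values are given for genes called in a bFGF response, an IL-11 comparison or the interaction, filled up to 6 by the size of the mean bFGF response. For other lists, up to 4 genes each could be named by the smallest adjusted p in the mean bFGF response. Promoter windows are those of RefSeq, GRCh38.p14, and 36 genes matched by symbol. Alternatives were median scaling, the authors' table, leaving the background uncorrected, looser and stricter detection filters, probes tested one by one, robust variances, no intensity trend, the methods' t-test, fits on only the arrays compared, a replicate block, and each array left out. With probes tested one by one, the probe with the smallest p in a comparison stood for its gene, which favours calls.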

Additional observations from a re-analysis of the deposited data

How the results depend on the processing

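With 2 arrays a condition, the counts of called mitotic genes moved with the processing. Between +bFGF and −bFGF, where 5 of 39 were called, the count was 3 without the intensity trend, 3 with only the arrays compared and 0 by the methods' t-test, and leaving out an array gave 0 to 4. Between +IL-11+bFGF and +IL-11, where 2 were called, it was 4 with probes tested one by one, 1 without the trend, 0 with only the arrays compared, 0 by the t-test and 0 to 2 with an array left out. Between +IL-11 and +bFGF, where 4 were called, it was 1 without the trend, 0 by the t-test and 0 to 5 with an array left out. Here the t-test, the fits on only the arrays compared and those with an array left out had fewer residual degrees of freedom. Why the counts moved was not tested. The count of 9 in the mean of both bFGF responses stayed between 6 and 13, the counts of 0 for both IL-11 comparisons and for the interaction stayed at 0 wherever they were run, and no direction of a called gene given with its array values was reversed in the comparisons where it was called. The median log2 fold change of the 39 genes stayed above 0, at 0.0504 to 0.174 (0.111 with all arrays) without IL-11 and 0.0462 to 0.214 (0.133 with all arrays) with IL-11 when an array was left out. The number of arrays and, for dim probes such as that of MKI67, the signal over background limit what could be called.

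The replicate numbers were not taken to pair the arrays. The correlation of replicate differences was above 0.1 for 5 of 6 pairs of conditions (0.102 to 0.195 over 9269 genes) and -0.0562 for +bFGF with +IL-11+bFGF, and no label ties a number to a shared day or batch. The 39 genes were mostly lower on replicate 2 in every condition. With the replicate block, 7 genes were called between +IL-11 and +bFGF in place of 4, and no other count moved by over 1.5 times.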
